A study of Mus musculus with 8 samples.

Results

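The complement genes C1ra, C1s1, C2, C3, C6, Cfb, Serping1, Cd55 and Masp1, 9 in all, were followed with age in dermal fibroblasts through every probe set that the array's annotation assigns to exactly 1 of them. A probe set is a group of short array probes read together as 1 value. The rule found 14 probe sets of 8 genes among the 45037 probe sets tested, 28898 of which carried a single gene symbol. Masp1 had 5 of them, Cd55 had 3, and the others had 1 each. No probe set was named for C3 in the annotation used, so C3 was not analysed here. The arrays came from 8 male C57Bl/6 mice, 4 young (2 months old) and 4 old (18 months old), 1 array per mouse, with no treatment or genetic change named in the labels. The cells were sorted from collagenase-digested skin without subdermis as Pdgfra+ and CD34+ cells that lacked CD45, CD117, CD24, CD31 and EpCam, and RNA of 5000 cells per mouse was amplified for 21 cycles. Mice were taken 2 young and 2 old per day, and the day of each mouse is not given.

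Complement is a cascade of secreted proteases and their substrates that tags surfaces for uptake and can punch pores into membranes. In the classical pathway, C1q binds a target and activates the proteases C1r and C1s, and C1s cuts C4 and C2 to form an enzyme that cleaves C3. The lectin pathway reaches the same point through MASP proteases, and the alternative pathway through factor B, the product of Cfb. C6 belongs to the membrane attack complex at the end of the cascade. C1 inhibitor, the product of Serping1, blocks C1r, C1s and the MASPs, and Cd55 (decay-accelerating factor) takes C3-cleaving enzymes apart on cell surfaces. The liver makes most plasma complement, and fibroblasts are among the local sources in tissue.

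In RefSeq's GRCm38.p6 annotation C1ra, C1s1, C1rb and C1s2 follow each other as neighbours, and Cfb and C2 lie side by side. C1rb and C1s2 are near copies of C1ra and C1s1. The bases upstream of C1ra, C1s1 and C1rb are shown because C1ra and C1s1 are the members that rose with an entry in the RefSeq promoter table, and because C1ra and C1rb are near copies. Each run gives the 250 bases before the transcription start, 5′ to 3′ along the gene, from RefSeq GRCm38.p6. The windows are chr6:124512371-124512620, plus strand, for C1ra; chr6:124542360-124542609, minus strand, for C1s1 (the more upstream of its annotated starts in the table); and chr6:124570180-124570429, plus strand, for C1rb. Capitals mark matches to the motifs named after the sequences.

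C1ra: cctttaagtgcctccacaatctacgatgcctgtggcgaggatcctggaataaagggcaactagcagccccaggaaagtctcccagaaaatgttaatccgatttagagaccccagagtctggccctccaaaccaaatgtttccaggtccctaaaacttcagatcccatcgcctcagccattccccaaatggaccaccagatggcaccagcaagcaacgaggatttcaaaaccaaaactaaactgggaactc

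C1s1: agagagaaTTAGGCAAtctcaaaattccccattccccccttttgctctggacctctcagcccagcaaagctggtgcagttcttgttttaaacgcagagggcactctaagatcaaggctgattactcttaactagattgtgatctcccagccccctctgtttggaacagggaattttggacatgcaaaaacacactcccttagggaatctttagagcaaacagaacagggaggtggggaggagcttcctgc

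C1rb: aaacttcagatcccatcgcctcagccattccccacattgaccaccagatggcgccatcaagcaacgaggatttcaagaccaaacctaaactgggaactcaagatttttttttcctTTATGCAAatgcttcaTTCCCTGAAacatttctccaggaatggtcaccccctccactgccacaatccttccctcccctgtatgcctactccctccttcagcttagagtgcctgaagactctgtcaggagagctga

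Of the 9 members, 5 had an entry in the promoter table, and of the 5 that rose, 2 did. Windows from 250 bases before to 50 bases after the start were searched on both strands for 4 motifs. GGGANTTNC, a core of NF-kappaB sites, occurs in 4.24% of the 32544 different promoters of the table, GAAANNGAA, a core of IRF sites, in 8.53%, TTCNNNGAA, the STAT motif, in 8.33%, and TTGCNNAA, one form of the C/EBP motif, in 10.8%. The C1s1 window held TTAGGCAA, a C/EBP match on the reverse strand, at -242. The C1ra window held a C/EBP match, TTATGCAA, at 17 and a STAT match, TTCCCTGAA, at 33, both after the start and so outside the printed run. The C1rb window held the same pair of matches at -135 and -119. The bases from -99 to 50 of C1ra aligned with those from -250 to -102 of C1rb at 92.7% identity over 150 columns, and the matches of both genes lie within that stretch. Of the other genes searched, C3 held a C/EBP match, TTGCGAAA, at -45, and Vtn, a list gene that fell, held an IRF match, TTCTGTTTC, at 6 and a STAT match, TTCTGGGAA, at 36. The windows of C6 and Cd55 held none of the 4. A match describes letters only, and a motif without a match is only absent from these windows.

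In old fibroblasts the protease genes C1ra, C1s1, C2 and Cfb rose by 2.55- to 3.83-fold and the inhibitor gene Serping1 by 1.34-fold. The lectin pathway protease gene Masp1, the surface regulator Cd55 and the terminal component C6 did not pass the test. With each gene read from its brightest probe set, 5 of the 8 measured members rose and none fell, where limma called 1.57% of all 17097 genes higher and 1.79% lower in old mice (Benjamini-Hochberg adjusted p under 0.05). The members' median change was 0.89 on the log2 scale, against 0.01 over all genes. All 8 measured members had a mean above the median of all probe sets. Of the 10554 genes above that level, limma called 242 higher and 291 lower. The members were chosen with earlier results of these data known, so their excess over these shares is a description and no independent support. Over their 14 probe sets, 5 passed, where 2.58% of all probe sets passed in either direction. All 4 old arrays lay above all 4 young arrays in 5 of the 14 probe sets, against 3.96% of all probe sets, and below them in 1 of 14, against 4.48%. Because the sorted cells were measured in bulk, more cells that express a gene and more RNA per cell cannot be told apart.

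**Figure D1:**
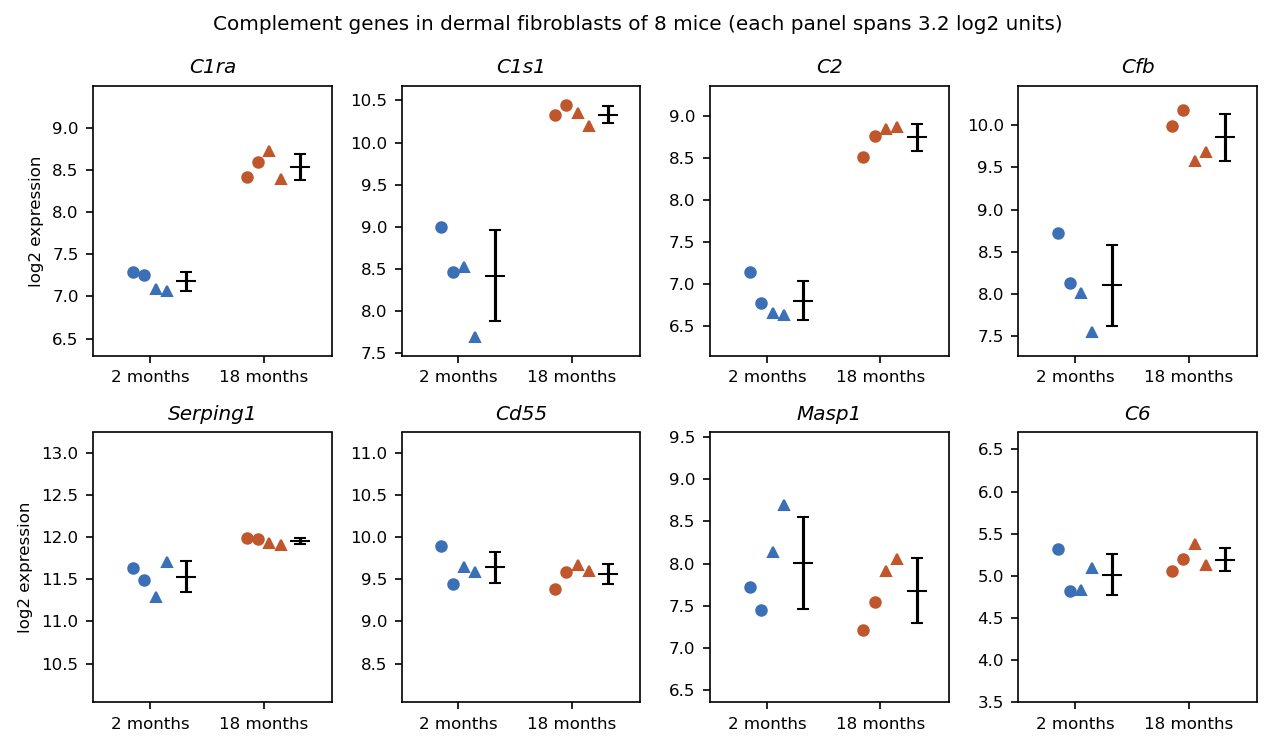
Log2 expression of the brightest probe set of each measured member in the 4 young (2 months, blue) and 4 old mice (18 months, orange); circles and triangles mark the lower and the higher run of title numbers, and the bar beside each group is the mean with its SD. Every panel spans the same number of log2 units, and C1ra, C1s1, C2, Cfb and Serping1 show no overlap between ages.

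C1ra encodes C1r, the protease that activates C1s. Its probe set (1417009_PM_at) read 7.29, 7.26, 7.09 and 7.07 in young replicates 1 to 4 and 8.42, 8.59, 8.72 and 8.39 in old replicates 1 to 4, as log2 expression. The groups were narrow, and the lowest old mouse lay 1.10 above the highest young mouse. The mean went from 7.18 ± 0.11 to 8.53 ± 0.15 (SD, n = 4), a log2 change of 1.35 ± 0.09 (SE; limma adjusted p = 0.000238). Levels are given ± SD and changes ± SE throughout.

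C1s1 encodes C1s, the protease that cuts C4 and C2. Its probe set (1424041_PM_s_at) read 9.0, 8.46, 8.52 and 7.70 in the young mice and 10.33, 10.44, 10.35 and 10.20 in the old mice. The young values ran over a range of more than a log2 unit, with replicate 1 highest and replicate 4 lowest, whereas the old values were close together. The SD was 0.54 in young and 0.10 in old mice, a difference in spread that was not tested. The log2 change was 1.91 ± 0.23 (SE; limma adjusted p = 0.00316), or 3.76-fold, with a 95% interval from 1.40 to 2.42. The suffix of this probe set marks probes that can match more than 1 related transcript, so a part of the signal may come from C1s2, which had no probe set named.

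C2 encodes the protease that pairs with C4 in the C3-cleaving enzyme of the classical and lectin pathways. Its probe set (1416051_PM_at) read 7.14, 6.78, 6.66 and 6.64 in the young mice and 8.51, 8.76, 8.84 and 8.86 in the old mice. The gap between the ages was 1.37, the widest among the member probe sets. C2 rose by 1.94 ± 0.12 (SE; limma adjusted p = 0.000162), or 3.83-fold, with a 95% interval from 1.66 to 2.22.

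Cfb, the neighbour of C2, encodes the protease with the matching task in the alternative pathway. Its probe set (1417314_PM_at) read 8.72, 8.13, 8.01 and 7.55 in the young mice and 9.99, 10.18, 9.58 and 9.68 in the old mice. The groups were 0.86 apart, and the young mice spread more widely (SD 0.48) than the old (SD 0.28). Cfb rose by 1.76 ± 0.23 (SE; limma adjusted p = 0.00491), or 3.38-fold. Among young mice, replicate 1 was highest and replicate 4 lowest in all 4 of these protease genes.

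Serping1 encodes C1 inhibitor, the serpin that inactivates C1r and C1s. Its probe set (1416625_PM_at) read 11.63, 11.49, 11.29 and 11.71 in the young mice and 11.99, 11.98, 11.93 and 11.91 in the old mice. The old values were nearly equal, and the lowest of them lay 0.20 above the highest young value. Serping1 rose by 0.42 ± 0.09 (SE; limma adjusted p = 0.0451), with a 95% interval from 0.22 to 0.63. This call was lost in each fit that left out a mouse other than young replicate 4, where the change lay between 0.34 and 0.46 and limma adjusted p between 0.0657 and 0.122, and 4 of the 8 members then rose. Serping1 was bright on arrays whose highest values were 13.22 to 13.32, and the part of its nearness to that limit in the size of its change was not tested.

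The changes of the 5 protease members were also set against that of Serping1 within each mouse, as the log2 difference between each gene's brightest probe set and Serping1. The comparison is a description with no test, since it rests on the changes already given. From young to old mice the difference increased by 1.52 ± 0.16 for C2, by 1.49 ± 0.31 for C1s1, by 1.33 ± 0.29 for Cfb and by 0.93 ± 0.13 for C1ra, with no overlap between ages. For Masp1 it changed by -0.75 ± 0.34, with overlap. Only the change in the difference can be read, since levels of different probe sets are not on a common scale. The part of Serping1's nearness to the arrays' highest values in these differences was not tested. The SEs here come from the spread of the differences within each age, not from limma. C2 and Cfb are listed for comparison only, since the targets of C1 inhibitor named above are C1r, C1s and the MASPs.

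**Figure D2:**
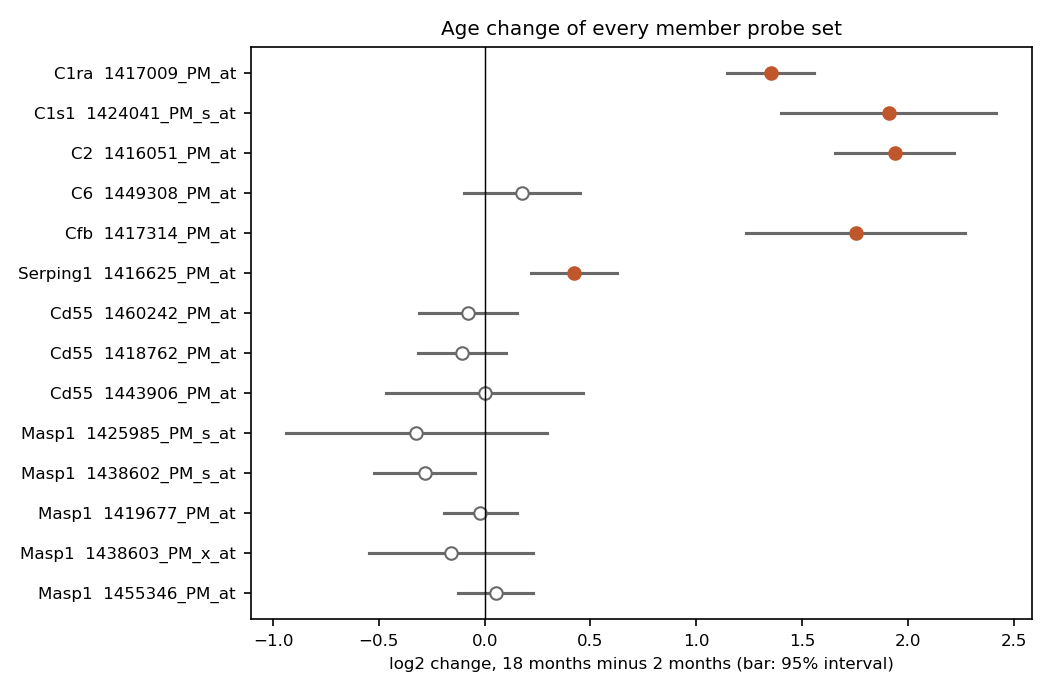
Log2 change, old minus young, of each of the 14 member probe sets, with its 95% interval from limma; filled points passed the adjusted threshold and open points did not. The filled points run from 0.42 (Serping1) to 1.94 (C2), and every open point lies between -0.32 and 0.18.

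Cd55 protects the cell's own surface from complement. Its brightest probe set (1460242_PM_at) read 9.89, 9.44, 9.64 and 9.59 in the young mice and 9.39, 9.59, 9.67 and 9.60 in the old mice. The ages overlapped throughout, and the change was -0.08 ± 0.10 (SE; limma adjusted p = 0.859) with a 95% interval from -0.31 to 0.15. A second set (1418762_PM_at) changed by -0.11 ± 0.09 around a mean of 8.89. The dimmest (1443906_PM_at) had the same mean, 5.515, in both ages, with a difference of 0.00 and an interval from -0.47 to 0.47. None of the 3 passed.

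Masp1 encodes lectin pathway proteases, several of which arise by splicing from the same gene. Its 5 probe sets changed by -0.32 to 0.05, and whether they differ from each other was not tested. The brightest (1425985_PM_s_at) read 7.72, 7.45, 8.14 and 8.70 in the young mice and 7.21, 7.54, 7.91 and 8.06 in the old mice, a change of -0.32 ± 0.27 (SE; limma adjusted p = 0.731). The size of this change was not steady, at -0.09 without young replicate 4, -0.51 without young replicate 2 and -0.07 with array weights. In both ages replicates 3 and 4 lay above replicates 1 and 2, a difference along the runs of title numbers. Within the lower and the higher run the age change was -0.21 and -0.435. With the run as a block it did not pass either (limma adjusted p = 0.300). The next (1438602_PM_s_at) read 7.38, 7.37, 7.49 and 7.77 in the young mice and 7.02, 7.30, 7.23 and 7.33 in the old mice. These values parted by 0.04 with the old mice lower, a change of -0.28 ± 0.11 that did not pass (limma adjusted p = 0.262, unadjusted p = 0.0253). It did not pass with the run as a block either (limma adjusted p = 0.143). The remaining 3 sets had means of 4.16 to 5.81 and changes from -0.16 to 0.05, none of which passed, and 1 of them lay under the median level of all probe sets, 5.10.

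C6 encodes a component of the membrane attack complex. Its probe set (1449308_PM_at) read 5.32, 4.82, 4.83 and 5.09 in the young mice and 5.06, 5.20, 5.38 and 5.13 in the old mice. The ages overlapped, and the change was 0.18 ± 0.12 (SE; limma adjusted p = 0.636) with a 95% interval from -0.10 to 0.45. The mean of 5.10 stood at the median of all probe sets and within the range of the 23 non-specific control probe sets, 2.98 to 7.20. A change in a low C6 level could therefore be missed. That control range is wide, with a median of 3.91, and is not particular to C6. It also held the young values of C2 (6.64 to 7.14), part of the young values of C1ra (7.07 to 7.29) and every value of Vtn's brightest probe set.

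The sample titles carry numbers that fall into 2 runs, each with 2 young mice (replicates 1 and 2, or 3 and 4) and 2 old mice, the makeup stated for a collection day. Whether the runs are the days is not stated. Within the lower and the higher run, C2 changed by 1.68 and 2.20, C1s1 by 1.66 and 2.17, Cfb by 1.66 and 1.85, C1ra by 1.23 and 1.48, and Serping1 by 0.43 and 0.42. All 5 thus rose in both runs. Because all old arrays lay above all young arrays for these 5, this follows from the lack of overlap already given and adds no support. The difference between runs was largest for C2 among the members that rose (0.53, unadjusted p = 0.0259), and it did not pass after adjustment (limma interaction adjusted p = 0.679). No probe set passed that interaction test in limma, 0 of 45037, with 3043 at an unadjusted p under 0.05. The dimmest probe set of Cd55 changed by -0.38 in the lower run and 0.38 in the higher run (limma interaction adjusted p = 0.729). With the run as a block the same 5 members rose.

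**Figure D3:**
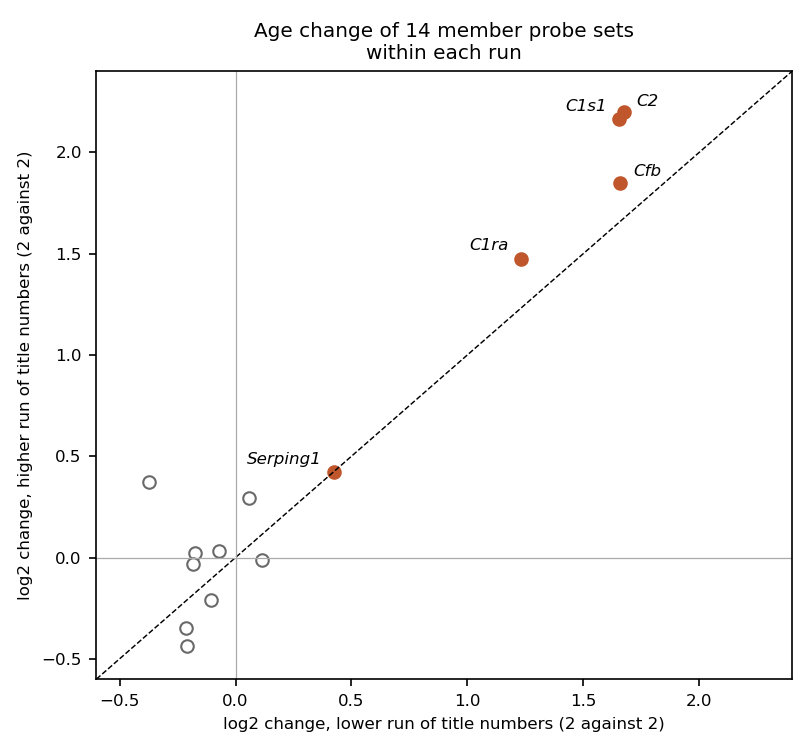
Log2 change, old minus young, of the 14 member probe sets within the lower (horizontal) and the higher (vertical) run of title numbers, 2 mice against 2 in each; the dashed line marks equal change and filled points passed the threshold in the fit over all mice. C1ra, C1s1, C2 and Cfb lie above the line, at 1.23 to 1.68 across and 1.48 to 2.20 up, and Serping1 lies on it.

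A wider list, also chosen with earlier results of these data known, held 57 complement genes with the members included, and 48 had a named probe set. Of the 48, 7 rose, 1 fell and 40 did not pass, with a median change of 0.04 against 0.01 over all genes. Outside the members 2 of 40 rose and 1 fell, against the 1.57% and 1.79% of all genes. In total 23 of the 48 lay above 5.10, and all 8 that changed were among them. Over all 17097 genes, 10554 lay above it, among them 242 of the 269 called higher and 291 of the 306 called lower.

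The classical pathway proteases had company in C4b, the substrate of C1s and partner of C2, whose near copy C4a had no probe set named. C4b (1418021_PM_at) read 11.90, 11.20, 11.18 and 11.49 in the young mice and 12.18, 12.28, 12.39 and 12.25 in the old mice. The groups did not overlap, and C4b rose by 0.83 ± 0.15 (SE; limma adjusted p = 0.0212). Leaving out 1 mouse at a time ended the call for 5 mice, young replicate 2 or 3 and old replicate 2, 3 or 4, with limma adjusted p from 0.0572 to 0.0659. C1rb (1456437_PM_x_at) read 10.46, 10.54, 10.43 and 10.46 in the young mice and 11.17, 10.92, 11.03 and 10.86 in the old mice, and rose by 0.52 ± 0.08 (SE; limma adjusted p = 0.00823). The suffix of that probe set marks probes that can bind other transcripts, so C1ra and C1rb may not be fully separated. The probe sets named for all 3 measured genes among the C1 proteases and their relatives rose, though they may share signal between near copies.

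The recognition subunits of C1 were dim, so a change in them could be missed, and their change was not tested against that of the proteases. None of C1qa, C1qb and C1qc passed, with changes from 0.07 to 0.11, and all 3 lay under 5.10. C1qc, the brightest of them, was at 4.59 ± 0.14 in young and 4.66 ± 0.12 in old mice, and C1qa at 4.27 ± 0.14 and 4.38 ± 0.14. In the lectin pathway none of 9 passed, and only 3 of them lay above 5.10. Colec11, a soluble pattern receptor, changed by 0.04 ± 0.08, and Colec12, a scavenger receptor named here after its values were seen, changed by 0.81 ± 0.23 with all old mice above the young ones (limma adjusted p = 0.128). With the run as a block, Colec12 joined the list genes that rose, which then numbered 8.

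Hc, which encodes C5, changed by -0.05 ± 0.09 around a mean of 4.71, and Cfp (properdin, which stabilises the alternative pathway enzyme) by 0.13 ± 0.08. None of the 5 terminal components passed, and 3 of them lay above 5.10. C8b and C8g changed by -0.03 ± 0.08 and 0.05 ± 0.06. Among 7 fluid-phase regulators, Serping1 rose and Vtn, which encodes vitronectin, an inhibitor of the membrane attack complex and a matrix protein, fell. Vtn (1420484_PM_a_at) read 6.56, 6.25, 6.40 and 6.50 in the young mice and 5.83, 5.90, 5.96 and 5.86 in the old mice, a change of -0.54 ± 0.08 (SE; limma adjusted p = 0.00718). A dimmer probe set of Vtn, with a mean of 4.02, changed by -0.45 ± 0.09 (limma adjusted p = 0.0388). Cpn1 and Clu, the 2 brightest others, changed by 0.04 ± 0.10 and -0.06 ± 0.21.

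None of 7 membrane regulators passed: beside Cd55, Cr1l (Crry, the rodent regulator of C3-cleaving enzymes) changed by 0.24 ± 0.09 (limma adjusted p = 0.258), and a dimmer probe set of Cr1l by -0.19 ± 0.11. None of the 9 receptor genes passed. Above 5.10 lay 3 of the 7 membrane regulators and 3 of the 9 receptor genes. C1qbp changed by 0.19 ± 0.24 and Itgax by 0.05 ± 0.10, and C3ar1 and C5ar1, the receptors of the C3a and C5a fragments (named after their values were seen), lay under 5.10 in all their probe sets.

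**Figure D4:**
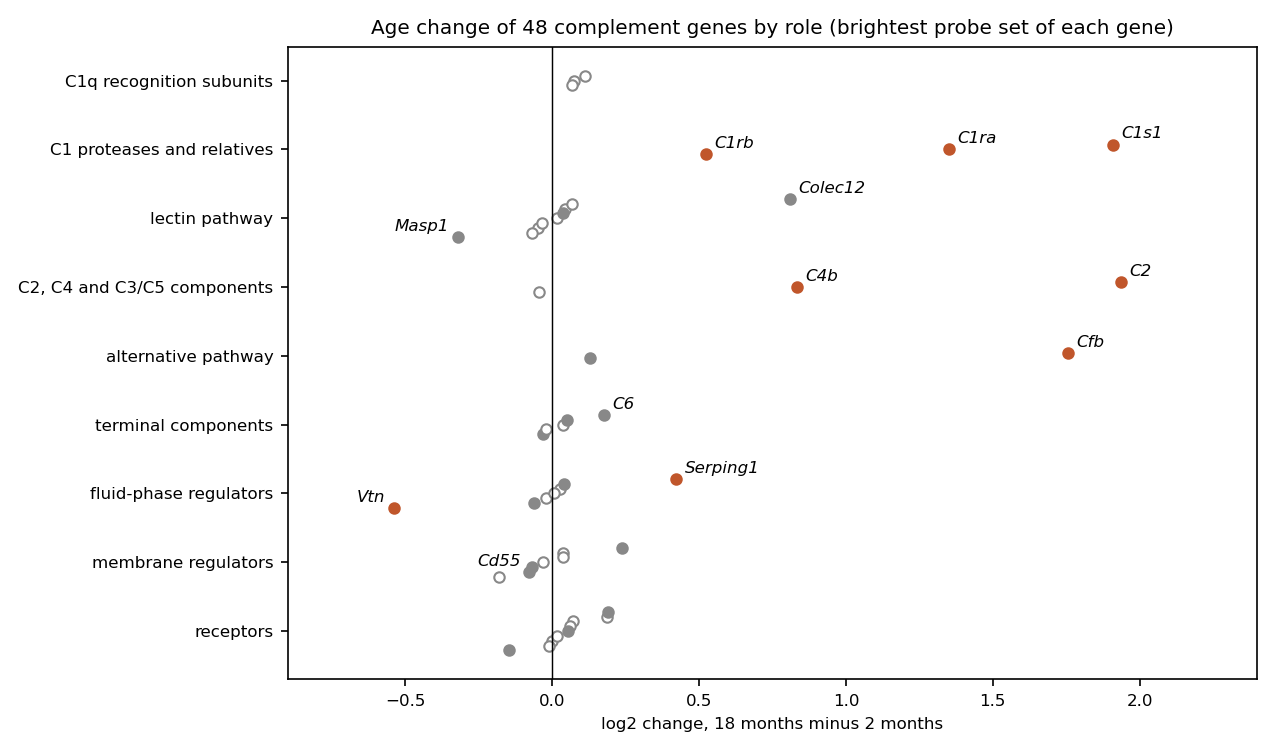
Log2 change, old minus young, of the brightest probe set of each of the 48 measured complement genes, grouped by role; orange points passed the threshold, grey points did not, and open points had a mean under the median of all probe sets. The orange points to the right are C1rb, Serping1, C4b, C1ra, Cfb, C1s1 and C2, and Vtn is the only one to the left.

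For each member that rose, the genes outside the complement list with the most similar values over the 8 arrays were sought among 4358 genes. Both genes of a pair differ between the ages, so Pearson's r describes mostly that shared step and is given without a test. Nearest to C2 were Rtn4rl1 (r = 0.99; change 0.90 ± 0.09) and Plcxd3 (r = 0.99; 2.49 ± 0.12). Nearest to C1ra were Nkain4 (r = 0.99; 2.75 ± 0.15) and Pltp, the phospholipid transfer protein gene (r = 0.99; 3.35 ± 0.13). C1s1 was nearest to Tmem176a (r = 0.99; 2.06 ± 0.20) and to Ece1, an endothelin-processing protease (r = 0.99; 0.60 ± 0.10). Cfb was nearest to Map3k7cl (r = 0.98; 1.14 ± 0.18) and to the Wnt inhibitor gene Sfrp1 (r = 0.98; 1.04 ± 0.14). Serping1 was nearest to Zyx, a focal adhesion protein (r = 0.98; 0.41 ± 0.08), and to the laminin chain gene Lama3 (r = 0.97; 0.52 ± 0.12), the latter not past the threshold (limma adjusted p = 0.0683). Only the 2 nearest genes of each member were kept, and the proteases had none of these in common. With r this close over 8 arrays the order carries little weight, and genes ranked lower were not compared.

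The label of the cells was set against marker genes. Of 8 fibroblast markers 7 lay above 5.10, among them Col1a1 at 13.13 ± 0.06 in young and 13.08 ± 0.05 in old mice, while Thy1 fell by 0.61 ± 0.07. Pdgfra, the sorting marker, was at 5.06 ± 0.25 and 4.47 ± 0.28 on its named probe set, under 5.10 in both ages, whereas Cd34 was at 10.82 ± 0.06 and 11.01 ± 0.04. Cd24a, the gene of the CD24 antigen used to exclude cells, fell from 8.07 ± 0.14 to 5.33 ± 0.64 (limma adjusted p = 0.00134), and Epcam, also an exclusion marker, changed by 0.40 ± 0.10 (limma adjusted p = 0.0715). Of 12 macrophage markers 2 lay above 5.10 (Csf1r, with a change of -0.03 ± 0.11, and Cd68), and 0 passed in limma, with 0 at an unadjusted p under 0.05. Their mean over the list was 4.78 to 4.87 in young and 4.85 to 4.87 in old mice, and Ptprc (CD45) was at 3.43 and 3.51, below the non-specific control median of 3.91. No T cell, mast cell, endothelial, pericyte and smooth muscle, or adipocyte marker passed (brightest Cd8a, Cma1, Pecam1, Acta2 and Fabp4). The mean of 7 keratinocyte markers was 5.70 to 6.45 in young and 5.93 to 7.52 in old mice, highest in old replicate 3. None of the 7 passed, though 6 had a change above 0 and the list's median change was 0.40. The changes were 1.12 ± 0.43 for Krt5, 1.11 ± 0.66 for Dsp, 0.63 ± 0.39 for Krt1, 0.35 ± 0.55 for Krt10, 0.24 ± 0.26 for Krt14 and -0.33 ± 0.21 for Trp63, beside that of Epcam. In the fit without old replicate 3, C1ra, C1s1, C2 and Cfb passed in limma, while Serping1 (adjusted p = 0.0949) and C4b (adjusted p = 0.0659) did not. That fit does not remove the keratinocyte shift, since Krt5 also read 8.43 in old replicate 4, against at most 7.55 in young mice. Of the 8 fits without a mouse, 7 lost the Serping1 call and 5 the C4b call, so these losses were not particular to old replicate 3. The mean of 7 melanocyte markers was 5.39 to 5.65 in young and 5.94 to 6.10 in old mice. Mlana rose by 2.88 ± 0.35, and without it the mean of the other 6 was 5.32 to 5.50 in young and 5.47 to 5.53 in old mice, with overlap. Mitf changed by 0.57 ± 0.22, Pmel by -0.09 ± 0.11 and Sox10 by -0.005 ± 0.08, and Dct, Tyr and Tyrp1 lay under 5.10. Of 3 Schwann cell genes, Ncam1 fell by 0.94 ± 0.16, and Sox10, which is on both lists, did not pass. The part of these shifts in the complement changes was not tested.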

How the data were processed

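The deposited table holds log2 expression values per probe set for 8 arrays, deposited by the authors, whose processing notes name RMA and affy without versions. RMA adjusts background, equalises arrays and summarises probes. Changes of very bright and very dim array signals can be compressed. Of 45141 probe sets, 104 controls were left out. Array medians lay between 5.06 and 5.14. Gene names came from the platform annotation, with 28689 symbols matched by gene identifier to RefSeq (GRCm38.p6) and 0 changed. The median probe set mean, 5.10, marks dim probe sets, and the number of arrays limits precision.

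Old and young mice were compared with limma 3.58.1 in R 4.3.3 (lmFit, eBayes, 2-sided), adjusted by Benjamini-Hochberg over all 45037 probe sets, since every member probe set was to be described; each mouse is a separate animal. A gene was called by its probe set with the highest mean. Changes are log2, old minus young. The promoter alignment used Biopython 1.88. The fit was tested on simulated arrays. Members and lists were chosen with earlier results of these data known. Genes named are the members, every list gene past the threshold, up to 2 others per role with the highest mean, the 2 genes most similar to each member that rose, and of each marker list those past the threshold and the brightest other. Similar genes needed a mean above 5.10 and an SD of at least 0.2. Promoters came from the RefSeq table. Alternatives changed the prior, array weights, the dim filter, how several probe sets of a gene were combined, the scaling, a run block and the set of mice.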

Additional observations from a re-analysis of the deposited data

Results flagged for a closer look

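In 1 of 28 combinations of a member probe set and an age, a mouse stood apart from the other 3 by Dixon's criterion, which chance meets in about 1 in 20 groups. It was the dimmest probe set of Masp1, where young replicate 3 read 4.04 and the other young mice all read 4.17. The values are rounded to 2 decimals and lie near the non-specific control median of 3.91.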

How the results depend on the processing

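C1ra, C1s1, C2 and Cfb passed the limma threshold in all 8 fits that left out a mouse and in all 8 others that gave them a value. Their changes were 1.29 to 1.40, 1.67 to 2.10, 1.88 to 2.05 and 1.57 to 1.96 without single mice, with the highest limma adjusted p at 0.0209 (Cfb). Members that rose numbered 4 to 5 without single mice and 5 in the other 9 fits. The complement list gave 5 to 7 higher and 1 lower without single mice. Over all features, limma called 555 higher and 608 lower. Without single mice these were 303 to 576 and 352 to 595; with the run block they were 771 and 941, with array weights 840 and 873, and with the brightest probe set of each gene, which tests fewer features, 311 and 368. The causes of the other shifts were not tested. Member probe sets whose sign turned were all near 0 and never passed: without single mice, Cd55 1460242_PM_at ran from -0.14 to 0.0058, Masp1 1419677_PM_at from -0.083 to 0.0167 (0.00333 without young replicate 1) and Masp1 1455346_PM_at from -0.0108 to 0.099; with array weights Masp1 1419677_PM_at was 0.0151 and Masp1 1438603_PM_x_at 0.0125. The dimmest Cd55 probe set, at 0, had no direction. Low signals, such as those of C1q and, at the median level, C6, limit what a missing change can show.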

Other observations

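Genes beside the members along the chromosome, chosen after the values were seen, did not all follow them. Nelfe and Zbtb12, which flank Cfb and C2 in RefSeq's GRCm38.p6 annotation, changed by 0.04 ± 0.11 and 0.12 ± 0.12 (SE; limma adjusted p = 0.946 and 0.794), while the pair between them rose. Lpcat3, the gene after C1s2, changed by -0.29 ± 0.23 (limma adjusted p = 0.718).

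The reverse held beside C6. Plcxd3, its neighbour in that annotation, was at 4.44 ± 0.22 at 2 months and 6.93 ± 0.17 at 18 months (SD, n = 4; limma adjusted p = 3.5e-05), a change of 2.49, while C6 changed by 0.18. Whether the change of C6 differs from that of Plcxd3 was not tested.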
